A study of Mus musculus with 6 samples.

Results

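Dio2, Thra, Thrb, Thrsp, Slc16a10 and Crym, genes of thyroid hormone activation, transport and action, were taken by symbol from a table of gene expression in mouse inguinal white adipose tissue (iWAT), which is fat beneath the skin. All 6 were present among the 16538 genes listed. RNA-Seq, which counts sequencing reads per gene, had been performed on 3 control samples and 3 samples from mice lacking neuregulin 4 (Nrg4) in adipocytes (AKO), with RNA of 2 mice pooled in each sample. The control samples carry the genotype label wt, and the study describes these mice as fl/fl littermates, with loxP sites flanking part of Nrg4. In AKO mice the floxed gene is deleted by Adiponectin-Cre, a recombinase expressed in adipocytes, so other cells of the depot keep the gene. Both groups were held at 8°C, for 10 days by the labels and for longer by the paper's text. Age and sex of these mice were not given in the sources used here, and no sample came from mice kept warm, so the values compare genotypes after cold and do not describe the response to cold.

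The thyroid gland releases mainly thyroxine, a precursor with little activity of its own. The type 2 deiodinase, encoded by Dio2, removes an iodine atom from the outer ring of thyroxine and so makes the active hormone, triiodothyronine, inside the cell. Brown and beige adipocytes induce Dio2 through noradrenaline and cyclic AMP, and the hormone made there raises transcription of thermogenic genes such as Ucp1. Slc16a10 (MCT10) carries the hormones across the plasma membrane, Crym encodes a cytosolic protein that binds triiodothyronine, and Thra and Thrb encode the nuclear receptors, which act on DNA with retinoid X receptors. Thrsp (Spot 14), named for its induction by thyroid hormone, encodes a nuclear protein that promotes fatty acid synthesis.

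The deposited values were read counts divided by a size factor for each sample (normalized counts). The samples held 17570335 to 18373707 reads on the listed genes. The 13855 genes averaging 10 or more were compared with limma on log2(normalized count + 1), a scale that shrinks the differences of genes with few counts. A call needed a Benjamini-Hochberg adjusted p under 0.05. For single genes a 2-sided exact permutation test was added, whose smallest possible p with these group sizes is 0.1. Of the 6 genes, 5 passed the filter and Crym did not. Nrg4 itself lay at 3092 to 3128 normalized counts in control and 2577 to 2691 in AKO, so every AKO sample was lower, with a log2 difference of -0.24 (adjusted p = 0.298 from limma). The paper, using quantitative PCR (qPCR), found almost no Nrg4 mRNA in iWAT of AKO mice. The Nrg4 count here sums the whole gene, so it does not measure the deleted part alone. Of its exonic bases, 6.06% overlap Fbxo22, a gene of the opposite strand. Over all genes tested, limma called 2 (0.0144%), 1 lower and 1 higher (0.00722% each), and 1261 (9.1%) had a p under 0.05 before adjustment. DESeq2, the test the study used, called 149 of 14923 genes on whole reads recovered from the same values (0.998%), and 113 of them (0.757%) were lower in AKO.

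Dio2 was lower in AKO iWAT, while the receptors, the transporter and Thrsp did not differ by more than the spread between samples. Dio2 spans 90724552 to 90738438 of chromosome 12 (GRCm38, minus strand), and its exons cover 5815 bases in GENCODE M21. Dio2 stood at 713, 637 and 526 normalized counts in control replicates 1, 2 and 3, and at 241, 169 and 343 in the AKO replicates in the same order. The highest AKO sample was thus below the lowest control sample. The AKO mean of 251 ± 87.6 was 0.402 times the control mean of 625 ± 94.5 (SD, n = 3 each, p = 0.1 by exact permutation). By limma the log2 difference was -1.36 with an SE of 0.24 (95% interval -1.91 to -0.81) and missed the threshold (adjusted p = 0.205). DESeq2 on the recovered reads called Dio2, with a log2 difference of -1.32 and an adjusted p of 5.3e-07. Another count test, edgeR, did not call it on the same reads (adjusted p = 0.234 with TMM and 0.206 with RLE scaling factors). Leaving out each sample in turn kept the limma log2 difference between -1.62 and -1.11, with adjusted p-values from 0.185 to 0.500. The paper reports Dio2 as significantly lower in AKO iWAT by qPCR. It also names Dio2 among the genes downregulated in its RNA-Seq. The groups were separate, with AKO lower, for 8.31% of all genes tested and with AKO higher for 6.14%, so separation alone does not set Dio2 apart. A noncoding gene on the opposite strand, Gm26512, shares 100 bases (1.72%) with the exons of Dio2 and was not in the table.

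**Figure D1:**
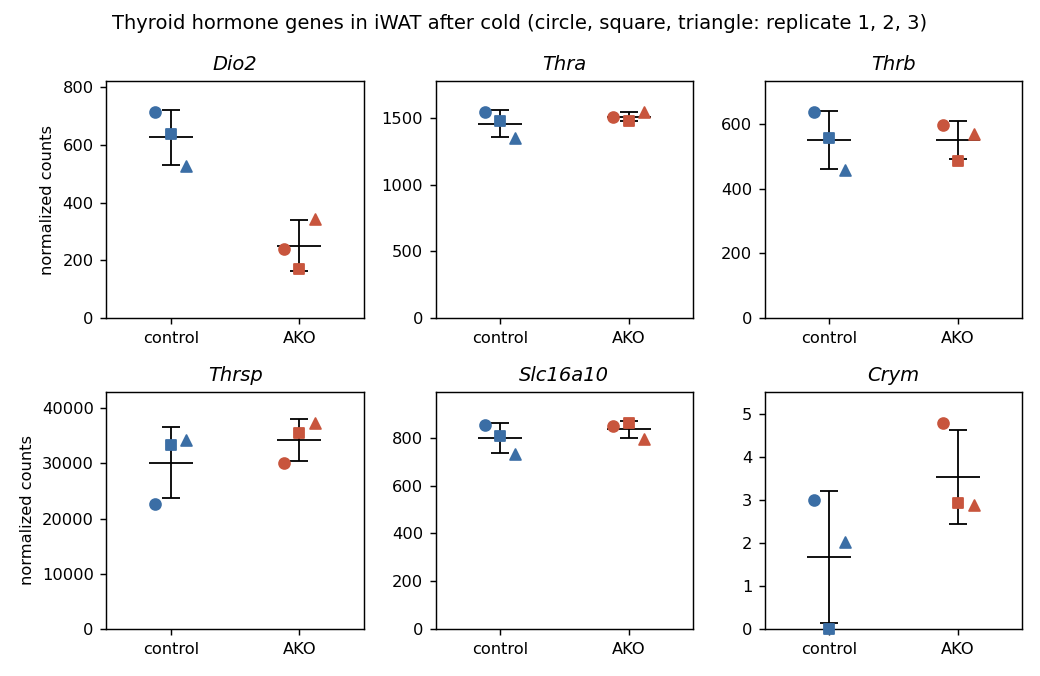
Normalized counts of the 6 thyroid hormone genes (vertical axes, each from 0) in 3 control and 3 AKO samples, with points for single samples, wide bars for means and error bars for the SD. The Dio2 samples of AKO lie between 169 and 343, below the control samples at 526 to 713, while the groups overlap for the other 5 genes.

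Markers of thermogenic fat were lower in the same samples. The summed level of 10 brown and beige adipocyte markers was 31706 to 45803 normalized counts in the control samples and 14819 to 18205 in the AKO samples, with all 10 genes lower in AKO and a median log2 difference of -0.77. Ucp1 alone made up 16827 to 25393 of the control sums and 4836 to 7801 of the AKO sums. limma called 1 of the 10, Elovl3, a fatty acid elongase gene, and it called 0.00722% of all genes lower. The sum of 10 general adipocyte markers was 781393 to 806729 in control and 658197 to 759579 in AKO, a much smaller relative difference, although these ranges also did not overlap. In a bulk sample, fewer cells of a type and less RNA per cell cannot be told apart, which holds for Dio2 and for every gene below. Skeletal muscle markers varied widely between samples. All 16 were listed, 13 had a higher mean in AKO, and their sum ranged from 703 to 29782 normalized counts in the control samples and from 21947 to 126470 in the AKO samples. The AKO sample with the highest muscle sum had the highest Dio2 of its group, and the control sample with the lowest muscle sum had the highest Dio2 of the controls. Sums of lymphocyte markers (178 to 1073 in control, 160 to 1533 in AKO) and of mammary epithelial markers (28.0 to 1374 in control, 190 to 1857 in AKO) also overlapped between groups and were highest in AKO replicate 2, which had the lowest Dio2. Macrophage (10 of 10 higher), adipocyte progenitor (8 of 8 higher) and endothelial sums overlapped as well, and no marker listed was at 0 in all samples. The part of these cell types in the Dio2 difference was not tested.

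The promoter of Dio2 is shown because cyclic AMP acts on it through a cyclic AMP response element (CRE), and that of Thrsp beside it because this gene was not lower in AKO. RefSeq promoter sequences (GRCm38.p6, 250 bases before to 50 after the start) were at hand for 4 of the 6 genes. The stretch before the start is given 5′ to 3′ on the gene's strand, in lower case with a CRE in capitals. It is chr12:90739039-90739288 on the minus strand for Dio2 and chr7:97417551-97417800 on the minus strand for Thrsp. RefSeq places the Dio2 start upstream of the end of the gene in GENCODE M21.
Dio2: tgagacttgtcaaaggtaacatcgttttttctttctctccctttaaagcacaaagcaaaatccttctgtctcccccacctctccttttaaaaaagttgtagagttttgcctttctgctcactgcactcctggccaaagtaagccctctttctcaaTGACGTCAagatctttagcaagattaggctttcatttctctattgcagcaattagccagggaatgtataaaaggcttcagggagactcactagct
Thrsp: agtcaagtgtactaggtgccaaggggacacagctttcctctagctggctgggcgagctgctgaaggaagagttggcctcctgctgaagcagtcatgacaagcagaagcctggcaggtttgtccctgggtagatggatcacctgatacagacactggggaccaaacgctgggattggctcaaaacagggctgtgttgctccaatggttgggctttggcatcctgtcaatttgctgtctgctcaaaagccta

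The full palindrome TGACGTCA begins 95 bases before the Dio2 start. It occurred in 1.79% of 32851 mouse promoters of the same length and in none of the promoter windows of Thrsp, Slc16a10 and Thrb. The half-site TGACG, searched on both strands and contained in the palindrome, occurred in 20.8% of promoters and also in a Thrb promoter. The thyroid hormone response element DR4, a pair of AGGTCA repeats spaced by 4 bases, was in 0.0152% of promoters and in none of these genes, and its half-site AGGTCA was in 16.3% of promoters and in a Thrb promoter. Among the 358 tested genes with the palindrome, 186 had a lower and 172 a higher mean log2 level in AKO, and the median log2 difference was -0.01, against 0.01 over all genes tested. The groups were separate with AKO lower for 10.6% of these genes, against 8.31% of all, and with AKO higher for 2.79%, against 6.14% of all. DESeq2 called 3 of the 358, Clstn3, Dio2 and Ogdh, all lower, a share near that of all genes (0.757% called lower). These letters show a sequence and not binding.

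The receptor genes did not differ detectably between genotypes. Thra lies on chromosome 11 from 98740638 to 98769006 (GRCm38, plus strand, as Thrb, while Slc16a10, Crym and Thrsp are on the minus strand) and encodes the receptor TRα1 and the variant TRα2, which does not bind the hormone, and gene counts do not separate them. Control samples had 1545, 1476 and 1347 normalized counts of Thra, against 1511, 1476 and 1545 in AKO. All AKO values lay within the control range or at its upper edge. The log2 difference was 0.06 (SE 0.07, 95% interval -0.10 to 0.21, adjusted p = 0.872 from limma), so a difference of more than 1.16-fold in either direction lies outside the interval. The SD of Thra in AKO (34.6) was below the counting error expected at this depth (38.2), so it understates the error. The end of Thra overlaps Nr1d1 (REV-ERBα, a repressor of the circadian clock) on the opposite strand, with 263 shared exonic bases, 5.70% of those of Thra. Without knowledge of the strand setting, reads of the shared stretch cannot be assigned. Nr1d1 had 5181 to 8087 normalized counts in control and 5263 to 7905 in AKO.

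Thrb (chromosome 14, 17660261 to 18038090), the main receptor gene of liver, measured 637, 558 and 458 normalized counts in control, against 596, 484 and 570 in AKO. The groups overlapped almost fully, and the means were 551 ± 89.6 (SD, n = 3) and 550.1 ± 58.6 (SD, n = 3). The log2 difference was 0.00 (95% interval -0.30 to 0.31, adjusted p = 0.996 from limma), and its sign changed in 5 of 15 alternative analyses. A change of Thrb as large as that of Dio2 lay outside this interval, while one of up to 1.24-fold did not. Among the retinoid X receptors, which pair with the thyroid hormone receptors on DNA, Rxrg and Rxrb were lower in every AKO sample. Of all genes tested, 8.31% were separate with AKO lower. Rxrg had 447, 445 and 485 normalized counts in control and 357, 340 and 421 in AKO, with a log2 difference of -0.30 (adjusted p = 0.472 from limma). For Rxrb, control samples had 933 to 1108 and AKO samples had 816 to 910 normalized counts, with a log2 difference of -0.23 (adjusted p = 0.508 from limma). Rxra, the most abundant of the 3, had a log2 difference of 0.01.

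Of the transport genes, Slc16a10 (chromosome 10, 40033532 to 40142258) measured 855, 807 and 730 normalized counts in control, against 849, 863 and 794 in AKO. The groups overlapped, and the log2 difference was 0.07 (SE 0.08, 95% interval -0.11 to 0.25, adjusted p = 0.846 from limma). The log2 differences were -0.14 for Slc3a2 and 0.16 for Slc7a5, which together form an amino acid exchanger that also carries the hormones. Of 13 genes for transport and cytosolic binding, 5 passed the filter and none was called or had a p under 0.05. Over all genes tested, limma called 0.0144% and 9.1% had a p under 0.05, so this does not set the 5 apart. Slco1c1, Slco1a4, Slco1a5 and Slc10a1 averaged 1.80 to 3.44 normalized counts.

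Crym (chromosome 7, 120186380 to 120202111) was close to undetected in both groups. Its normalized counts were 3.01, 0 and 2.03 in control, against 4.80, 2.93 and 2.89 in AKO. These are 5 reads in all for control (exact Poisson 95% interval 1.62 to 11.7) and 11 for AKO (5.49 to 19.7), and the ratio per read sequenced was 2.15 with an interval of 0.688 to 7.89. The intervals cover counting error only. A difference was not detectable at this depth (exact permutation test, p = 0.3). Dio3, which encodes the deiodinase that inactivates thyroid hormone, averaged 4.85 normalized counts over the 6 samples, and Dio1 was not among the listed genes. Dio2 was thus the only deiodinase gene past the filter.

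Thrsp lies on chromosome 7 from 97412938 to 97417730. It reached 22713, 33385 and 34288 normalized counts in control, against 30015, 35508 and 37393 in AKO. Control replicate 1 was the lowest of the 6, and the groups overlapped. The means were 30129 ± 6438 (SD, n = 3) and 34306 ± 3833 (SD, n = 3). The log2 difference was 0.21 (SE 0.17, 95% interval -0.18 to 0.59, adjusted p = 0.775 from limma), and without control replicate 1 it was 0.01. The value for Thrsp was therefore of the opposite sign to that of Dio2 and rested on a single control sample.

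Levels of different genes were compared per kilobase of exon, using the exon lengths of GENCODE M21. Thrsp had 13764 ± 2941 normalized counts per kb (SD, n = 3) in control, which over all 6 samples ranked it at 19 of 13337 genes with a length. Thra followed at 316 ± 21.8, Slc16a10 at 108 ± 8.58, Dio2 at 108 ± 16.2, Thrb at 74.5 ± 12.1 and Crym at 0.496 ± 0.453 (SD, n = 3 each). Slc16a10 and Dio2 did not differ beyond their spread, with a ratio of Slc16a10 to Dio2 per kb from 0.947 to 1.10 in the control samples. In AKO the order changed at Dio2 alone. Dio2 had 43.2 ± 15.1 normalized counts per kb (SD, n = 3), below Thrb at 74.3 ± 7.91 (SD, n = 3). The ratio of Thrb to Dio2 per kb was 0.685 to 0.702 in control and higher in every AKO sample, at up to 2.25. Both genes were highest in control replicate 1 and lowest in control replicate 3, an order that Thra and Slc16a10 shared and Thrsp reversed.

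**Figure D2:**
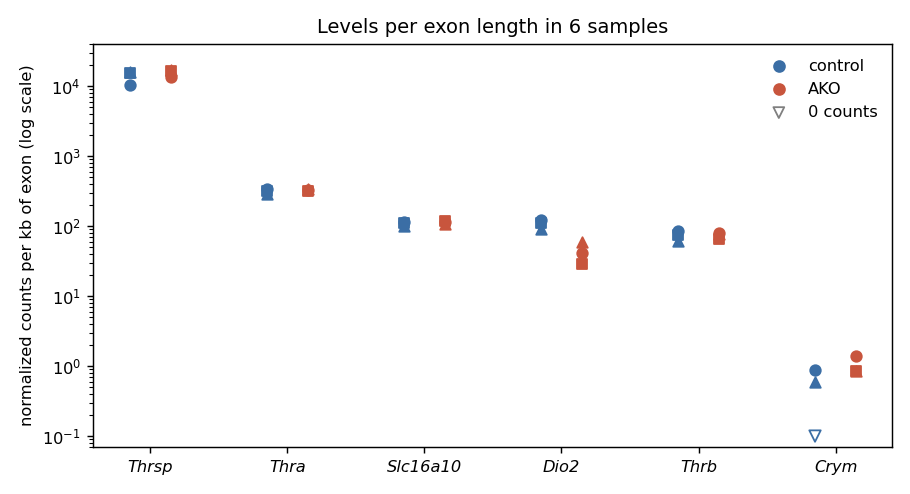
Normalized counts per kb of exon (vertical axis, log scale) of the 6 genes in each control and AKO sample, with an open triangle for a sample with 0 counts. Thrsp lies at 10376 or higher in every sample, Crym at 1.42 or lower, and Dio2 passes from the level of Slc16a10 in control to below Thrb in AKO.

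Dio2 was then set against 10 other genes within each sample, which cancels differences in scaling between samples. Relative to Thra, the log2 ratio of Dio2 measured -1.11, -1.21 and -1.36 in control, against -2.64, -3.12 and -2.17 in AKO, a difference of -1.42. The difference was -1.37 relative to Thrb, -1.43 relative to Slc16a10 and -1.57 relative to Thrsp. It was -1.26 relative to Adipoq, the adipocyte gene for adiponectin, -1.08 relative to Adrb3, the adrenergic receptor upstream of Dio2 in fat, and -1.11 relative to Ppargc1a, the coactivator PGC-1α. In each of these 7 comparisons the groups did not overlap (exact permutation test, p = 0.1, adjusted p = 0.125 over 10 comparisons, 0.1 being the smallest p the test allows). All 7 share the same Dio2 values, so they largely repeat the Dio2 difference and are not separate results. Relative to Ucp1 and Cidea the groups overlapped. The log2 ratio of Dio2 to Ucp1 averaged -4.99 ± 0.33 in control and -4.60 ± 0.20 in AKO (SD, n = 3 each, exact permutation test, p = 0.2), a difference of 0.39. Relative to Cidea, a lipid droplet protein gene of thermogenic adipocytes, the difference was -0.54 (exact permutation test, p = 0.3). The ratio to Crym rests on 0 to 5 reads of Crym per sample and is not interpreted.

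**Figure D3:**
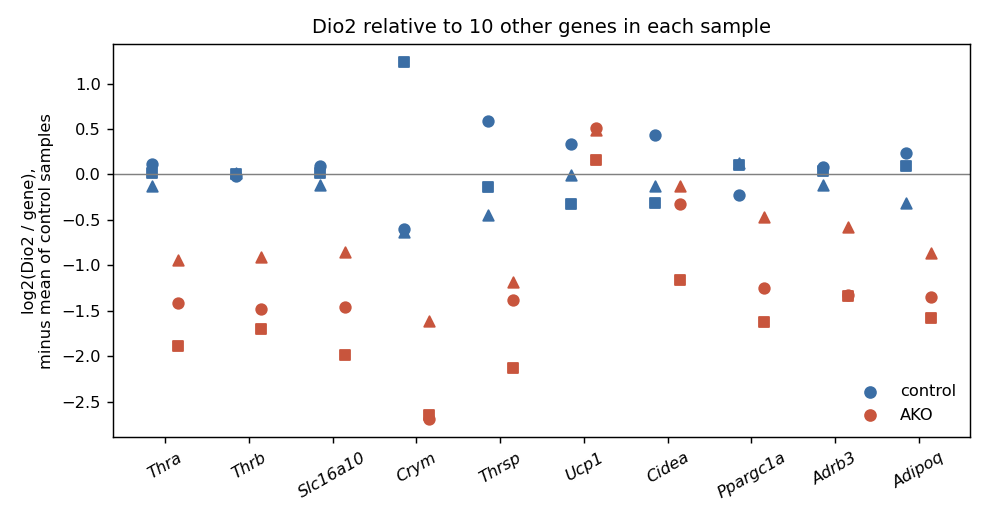
Log2 ratio of Dio2 to each of 10 genes in each sample, minus the mean of the control samples (vertical axis), with circles, squares and triangles for replicates 1, 2 and 3. The AKO samples lie below all control samples for every gene except Ucp1 and Cidea, for which the groups overlap.

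The profile of Dio2 over the 6 samples was also compared with those of all other tested genes, by the root mean square difference of log2 values centered on each gene's mean. The closest was Gyk (0.198), which encodes glycerol kinase, followed by Dhrs9 (0.219), Mab21l2 (0.268), Kng2 (0.282) and Ucp1 (0.293). The median over all genes was 0.766. Gyk measured 1368, 1492 and 1082 normalized counts in control, against 549, 431 and 577 in AKO. Mab21l2 averaged 17.2 normalized counts in control and 6.76 in AKO, so its profile rests on few reads. Genes close to Dio2 by this measure are lower in AKO by construction, and no test was made of them. Thrb (0.722) was slightly nearer than the median gene, while Thra (0.763), Slc16a10 (0.790) and Thrsp (0.889) were about as far from Dio2 as the median gene or farther. The 5 genes closest to Thrsp were Isyna1, Wnt9a, Zbtb8os, Gpsm1 and Rps26 (0.0565 to 0.0664), which like Thrsp were lowest in control replicate 1, and the median over all genes was 0.278.

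Beyond the 6 genes, lists for the thyroid hormone pathway held 68 genes, of which 63 were listed and 57 tested. None of the 57 was called by limma (0.0144% of all genes tested). At a p under 0.05 before adjustment, 8 of 57 (14.0%) were lower and 1 (1.75%) was higher, against 4.69% and 4.41% of all genes tested. The median log2 difference was 0.00, against 0.01 over all genes. DESeq2 called 2 of these genes, Dio2 and Ucp1, both lower, against 0.757% of all genes called lower. Ucp1, the uncoupling protein of thermogenic fat and a target of triiodothyronine, had 18058, 25393 and 16827 normalized counts in control and 5401, 4836 and 7801 in AKO, with a log2 difference of -1.75 (SE 0.21, adjusted p = 0.0703 from limma). With the filter of at least 10 normalized counts in every sample, limma called Ucp1 as well (adjusted p = 0.0246).

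Receptors that raise cyclic AMP stand upstream of Dio2. Adrb3, by far the most abundant of them, measured 8443, 7806 and 7170 normalized counts in control, against 7636, 5366 and 6434 in AKO. The groups overlapped, with a log2 difference of -0.28 (adjusted p = 0.564 from limma). Adrb1 had 202, 182 and 214 in control and 144, 147 and 154 in AKO. Its groups were separate with AKO lower, as for 8.31% of all genes tested. The log2 difference was -0.42 (SE 0.10, adjusted p = 0.349 from limma). Tshr, the thyrotropin receptor, had a log2 difference of 0.13.

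DIO2 protein is a selenoenzyme that is marked by ubiquitin for degradation, and 11 genes for these steps were tested. None was called by limma or DESeq2, and their log2 differences lay between -0.21 and 0.17. Over all genes limma called 0.0144% and DESeq2 0.998%, so the lack of calls does not set these 11 apart. March6, a ubiquitin ligase gene, had a log2 difference of -0.02, and Wsb1, part of another ligase for DIO2, had 0.17. Sephs2, which makes the selenium donor for selenocysteine, had 2353, 2744 and 2447 normalized counts in control and 2279, 2160 and 2110 in AKO. Every AKO sample was lower, as for 8.31% of all genes tested, with a log2 difference of -0.20 (adjusted p = 0.505 from limma). Pstk, the kinase that acts on selenocysteine transfer RNA, had -0.21 (adjusted p = 0.652 from limma).

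The 13 coregulator genes also had no call by limma or DESeq2, which is near the shares of all genes called (0.0144% and 0.998%). Ncor1, a corepressor of unliganded receptors, had a log2 difference of -0.07. Ncoa3, a coactivator, was higher in every AKO sample, as for 6.14% of all genes tested. It had 1029 to 1070 normalized counts in control and 1129 to 1266 in AKO (log2 difference 0.17, adjusted p = 0.522 from limma). Ppargc1a had -0.25 (adjusted p = 0.754 from limma), with overlapping groups.

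The 18 genes known to respond to thyroid hormone did not share a direction, with 7 lower and 11 higher, a median log2 difference of 0.09 and no call by limma, while DESeq2 called Ucp1. Groups were separate with AKO lower for 3 of the 18 (16.7%, against 8.31% of all genes tested) and with AKO higher for 0 (against 6.14%). The 3 were Ucp1, Pck1 and Atp2a2. Pck1, which encodes the glyceroneogenic enzyme PEPCK, had 44001, 63931 and 49893 normalized counts in control and 37792, 38719 and 42767 in AKO (log2 difference -0.39, adjusted p = 0.505 from limma). Atp2a2, the SERCA2 calcium pump gene, had 3908 to 4371 in control and 3652 to 3782 in AKO (log2 difference -0.16, adjusted p = 0.522 from limma). Most genes of fatty acid synthesis lay above 0, namely Acly, Scd1, Acaca (log2 difference 0.24), Mid1ip1 (0.20), Me1 (0.13) and Fasn. Acacb and Mlxipl lay below 0, and each of these intervals included 0. Acacb, for an acetyl-CoA carboxylase, had a log2 difference of -0.29 (95% interval -0.62 to 0.04), and Mlxipl, for the transcription factor ChREBP, had -0.08. Acly, for ATP citrate lyase, had 19934, 48376 and 32728 normalized counts in control and 35899, 61727 and 39327 in AKO, with a log2 difference of 0.49 (95% interval -0.26 to 1.23, adjusted p = 0.709 from limma). Scd1, the most abundant of the 18, had 0.25 (95% interval -0.23 to 0.73) and Fasn, for fatty acid synthase, had 0.08 (95% interval -0.41 to 0.57). Like Thrsp, the genes Acly, Fasn, Scd1, Acaca and Me1 were lowest in control replicate 1. The counts measure transcripts, and neither the hormone nor deiodinase activity was measured in these files.

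**Figure D4:**
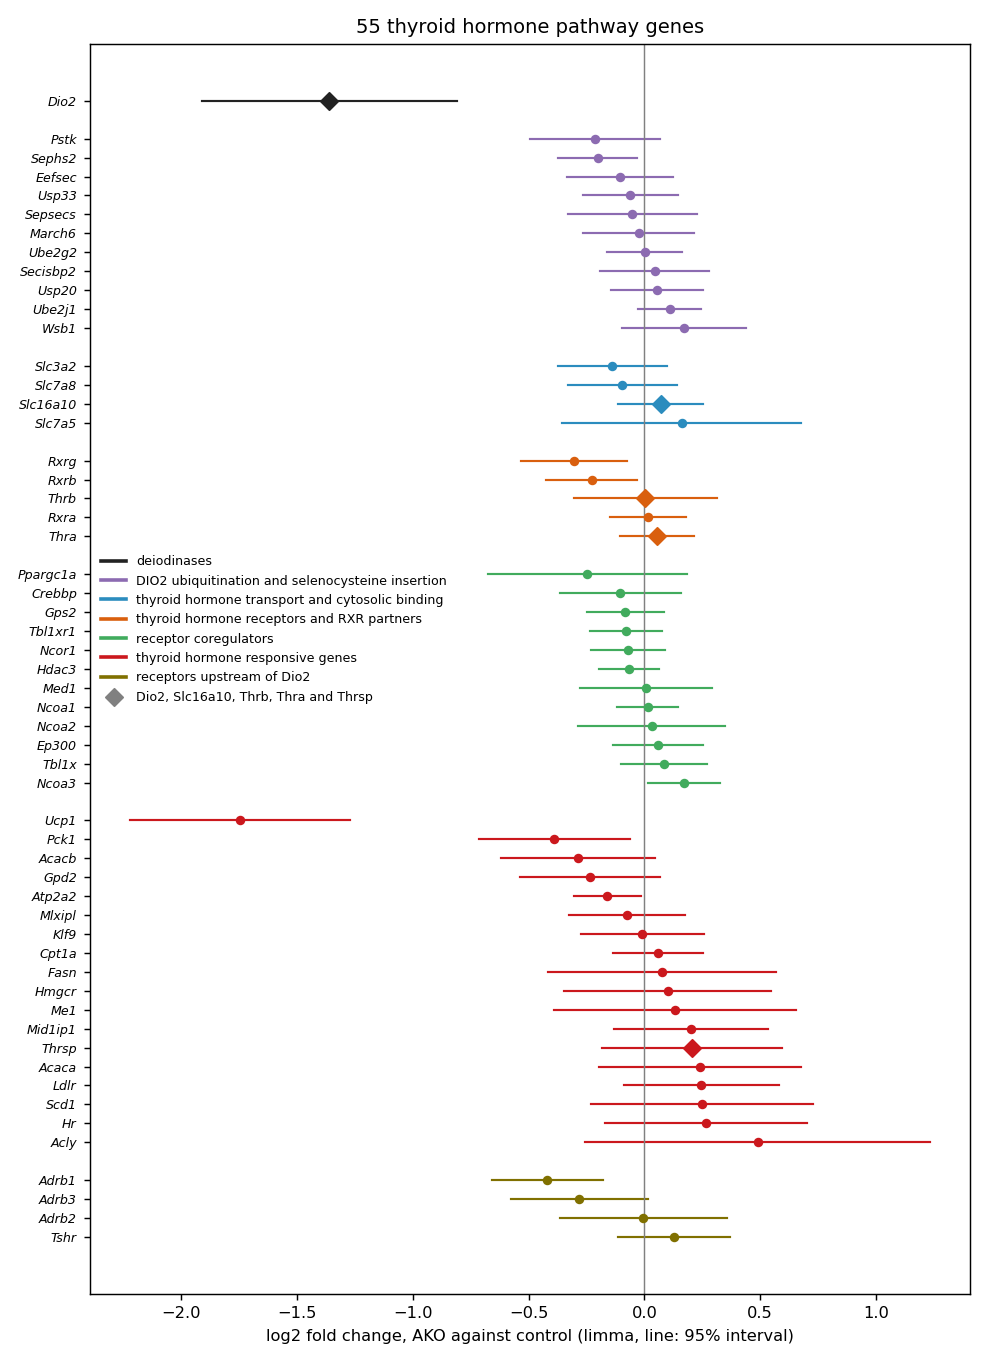
Log2 fold change of AKO against control (horizontal axis) for 55 of the 57 tested pathway genes in 7 lists, with lines for the 95% interval of limma and diamonds for Dio2, Slc16a10, Thrb, Thra and Thrsp. Dio2 (-1.36) and Ucp1 (-1.75) stand far below the others, which lie between -0.42 and 0.49.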

How the data were processed

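RNA-Seq was done by the authors on iWAT of 3 control and 3 AKO samples, grouped here by the genotype in the labels. Per the paper's methods, the authors mapped reads to GRCm38.p6 (STAR), assigned them to GENCODE M25 genes (featureCounts) and tested genotype with DESeq2, and they deposited a signal per gene, the count divided by a size factor. The strand setting and gene filter are not given in the sources used here. The deposited log2 fold changes, p-values and adjusted p-values are the authors' own comparison and were not used. Within each sample, 100% of values were whole multiples (within 0.01) of the value of a single read, 0.960 to 1.08, which was lower in every AKO sample.

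The values were tested with limma 3.58.1 (R 4.3.3) with a trend in the variance, on log2(value + 1), for genes with a mean of at least 10. DESeq2 1.42.0 and edgeR 4.0.16 were run on the recovered reads. The fits were tested on simulated data. No pair of replicates was a repeated library, since their counts differed 10.4 to 21.2 times as much as sampling allows (chi-square over its degrees of freedom). Whether the pools are separate cohorts is not stated, so p-values measure the spread between these samples. Exon lengths and positions came from GENCODE M21 (13337 of 13855 genes matched, 96.3%) and promoters from RefSeq. The genes and lists were chosen with earlier results of these data known. Named are the 6 genes, Nrg4, overlapping genes, the 2 most abundant and 2 most changed genes of each list, 10 genes set against Dio2, the 5 closest profiles to Dio2 and Thrsp, and marker sums. Genes beyond this rule, namely Dio3, Slco1c1, Slco1a4, Slco1a5, Slc10a1, Wsb1, Elovl3, Clstn3, Ogdh, Acaca, Acacb, Me1, Mid1ip1, Mlxipl, Pck1 and Atp2a2, were named after their values were seen. Values of 2 other genes of the lists are not reported here, though they are in the counts of genes.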

Additional observations from a re-analysis of the deposited data

How the results depend on the processing

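The alternatives were pseudocounts of 0.1 and 10, no filter or at least 10 in every sample, TMM factors, DESeq2, edgeR with TMM or RLE factors, a replicate block, and leaving out each sample. Dio2 was lower in AKO in all 15, from -1.62 to -1.11 on the log2 scale, and passed the threshold only with DESeq2 (-1.32). Thra was 0.00 without control replicate 3 (-9.0e-05, sign reversed) and ranged from -9.0e-05 to 0.10 over the samples left out. Thrb had the opposite sign with DESeq2 (-0.0030) and edgeR with RLE factors (-0.0013), and ranged from -0.12 to 0.12 over the samples left out, below 0 without control replicate 3 (-0.12), AKO replicate 1 (-0.06) and AKO replicate 3 (-0.02). Thrsp and Slc16a10 kept their sign, from 0.01 to 0.31 and from 0.01 to 0.12. Crym failed the filter of the other tests, and its difference ranged from 0.22 to 2.02 over 9 alternatives, with few reads in both groups.

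The number of genes called over all genes was 2 by limma, 6 with at least 10 in every sample, 149 with DESeq2, 5 with edgeR and RLE factors, and 0 to 3 with a sample left out. Of the pathway genes 0 were called by limma, 1 with at least 10 in every sample (Ucp1) and 2 with DESeq2 (Dio2 and Ucp1). The cause of the difference between tests was not tested. The direction of all 10 ratios of Dio2 held under both pseudocounts and with each sample left out.

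Same-numbered samples are pools of different mice, and their deviations from the group means correlated at 0.14, -0.35 and 0.24. Samples with different numbers correlated at -0.50 to 0.34. With 3 samples per group, these values cannot decide whether the numbers pair the samples. With the replicate block, 2 genes were called, and the log2 fold change of Dio2 was -1.36 (adjusted p = 0.114 from limma).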
